A study of Homo sapiens with 14 samples.

Results

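The primitive streak and mesoderm regulator loci are 8 genes, TBXT, EOMES, MIXL1, GSC, MESP1, LHX1, TBX6 and MSGN1, each taken as its GENCODE release 44 gene body on hg38 with 60 kb added on each side. The genes were named by symbol, and all 8 were found among the 20033 protein-coding genes of chromosomes 1 to 22, X and Y. WIBR3, an established line of human embryonic stem cells (hESCs), was profiled by ChIP-seq, in which DNA bound by a protein is immunoprecipitated and sequenced, in 2 states: naïve cells in 5i/L/A medium and primed cells in the conventional medium, both kept on inactivated mouse feeder fibroblasts. The naïve cells were obtained by converting primed cells and were expanded as a polyclonal population. Antibodies recognised BRG1 (SMARCA4) and BRM (SMARCA2), the alternative ATPases of the BAF chromatin remodelling complex, BAF155 (SMARCC1), which belongs to the core of BAF, and the pluripotency factor SOX2. Of 14 samples, 4 are inputs used for peak calling, and 10 carry a peak list. Each BAF group has 1 library, and SOX2 has 2 per state, whose lists hold identical coordinates and were counted as 1 sample. There is therefore no replicate error, no test between the states, and all intervals (exact Clopper-Pearson, 95%) cover counting error only. RNA was not measured in these files.

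The primitive streak is the structure through which epiblast cells leave the epithelium at gastrulation to become mesoderm and definitive endoderm. WNT, NODAL and BMP signals induce it. TBXT (Brachyury) and EOMES are T-box factors of the streak, MIXL1, GSC and LHX1 are homeodomain factors of the streak and of its anterior end, MESP1 is a bHLH factor of nascent mesoderm, and TBX6 and MSGN1 act in paraxial mesoderm. Pluripotent cells have yet to enter this program, and primed cells stand closer to gastrulation than naïve cells.

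In primed hESCs, SOX2 peaks occurred at TBXT, EOMES, GSC, LHX1 and MSGN1, and the strongest was 11 kb downstream of the MSGN1 5′ end. The windows of 151 bases centred on 6 of these SOX2 summits are shown. Of the 6, 4 had no SOX2 peak in naïve cells. The other 2, at EOMES and upstream of GSC, are the only SOX2 sites of the loci called in both states. The windows left out, at EOMES 41.8 kb downstream and at GSC 1.44 kb downstream and 3.15 kb upstream, also had no naïve SOX2 peak. Letters are the plus strand of hg38. Capitals mark matches to letters on either strand, searched as CATTGT or CTTTGT for SOX factors and ATGCAAAT or ATGCTAAT for OCT4. The search used CTTTGA for TCF/LEF, GGTGTGA for T-box factors, TGTGNATT for FOXH1 and AGATAA for GATA factors, and none of these contains another.
TBXT, upstream, chr6:166197406-166197556: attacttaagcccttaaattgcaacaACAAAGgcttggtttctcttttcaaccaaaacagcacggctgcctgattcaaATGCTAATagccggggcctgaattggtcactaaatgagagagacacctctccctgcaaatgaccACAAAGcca
EOMES, upstream, chr3:27728598-27728748: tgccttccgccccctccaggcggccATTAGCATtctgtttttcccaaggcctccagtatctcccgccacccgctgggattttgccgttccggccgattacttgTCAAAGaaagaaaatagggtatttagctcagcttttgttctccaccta
GSC, promoter, chr14:94770438-94770588: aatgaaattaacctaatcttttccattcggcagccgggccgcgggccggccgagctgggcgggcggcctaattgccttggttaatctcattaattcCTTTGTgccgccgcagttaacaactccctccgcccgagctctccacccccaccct
GSC, upstream, chr14:94781079-94781229: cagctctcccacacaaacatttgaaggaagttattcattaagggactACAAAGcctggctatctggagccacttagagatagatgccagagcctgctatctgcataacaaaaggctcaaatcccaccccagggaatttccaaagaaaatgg
LHX1, upstream, chr17:36921266-36921416: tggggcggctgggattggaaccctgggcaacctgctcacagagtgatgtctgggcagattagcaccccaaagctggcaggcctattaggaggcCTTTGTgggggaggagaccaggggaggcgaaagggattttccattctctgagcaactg
MSGN1, downstream, chr2:17827419-17827569: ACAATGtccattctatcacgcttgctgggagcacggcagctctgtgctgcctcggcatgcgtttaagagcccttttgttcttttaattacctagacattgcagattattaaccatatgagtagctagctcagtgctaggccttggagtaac

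Of the 9 primed SOX2 windows in the 8 loci, 6 held SOX letters, against 54.2% of the windows at all 9290 primed SOX2 peaks. Among the windows not shown, SOX letters were found at the EOMES site alone. The GSC window 3.15 kb upstream held no match to any motif. OCT4 letters were found in 2 of 9, at TBXT and at the upstream EOMES site, against 10.8% of all. At TBXT the match ATGCTAAT began 3 bases after the summit. TCF/LEF letters, the motif of the nuclear effectors of WNT signalling, were found in 2 of 9, at the upstream EOMES site and inside GSC, against 17% of all. None of the 9 held T-box, FOXH1 or GATA letters, which were present in 1.8%, 3.54% and 9.43% of all windows. A match is a description of the letters and not an occupied site.

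The 250 bases before the RefSeq start (GRCh38) of MIXL1 and MSGN1 are shown on the strand of the gene. MIXL1 had a BAF peak there in both states, as did GSC, TBX6 and TBXT at its start with the window chr6:166167852-166168101. MSGN1 was the only matched member with none. Sequences were matched for 6 members and not for MESP1 and LHX1.
MIXL1 promoter, chr1:226223414-226223663, plus strand: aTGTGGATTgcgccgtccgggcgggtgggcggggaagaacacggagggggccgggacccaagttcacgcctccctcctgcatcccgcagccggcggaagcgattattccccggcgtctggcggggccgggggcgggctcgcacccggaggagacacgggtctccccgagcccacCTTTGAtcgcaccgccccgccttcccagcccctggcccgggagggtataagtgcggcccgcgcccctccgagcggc
MSGN1 promoter, chr2:17816210-17816459, plus strand: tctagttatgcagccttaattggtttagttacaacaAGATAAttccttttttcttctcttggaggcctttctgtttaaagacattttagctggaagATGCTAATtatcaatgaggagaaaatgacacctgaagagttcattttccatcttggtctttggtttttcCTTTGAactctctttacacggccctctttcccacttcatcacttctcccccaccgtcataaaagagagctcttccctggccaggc

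These promoters differ in composition. MIXL1 had a GC content of 74% with 30 CG dinucleotides and MSGN1 40.8% with 2, against medians of 58% and 11 over 35116 RefSeq promoters. These were the highest and lowest GC contents of the matched members. The others had 60.8% and 69.6% at the 2 TBXT starts, 62% at EOMES, 59.6% at GSC and 72% at TBX6. MIXL1 carried FOXH1 letters (2.89% of all promoters) and TCF/LEF letters (11.2%), and FOXH1 is the DNA-binding partner of the SMADs of NODAL signalling. MSGN1 carried 1 match each to OCT4 (2.19%), TCF/LEF and GATA (9.17%). The promoters of EOMES, GSC and TBX6 and the TBXT start of 60.8% GC held no match to any motif. The TBXT start of 69.6% GC held 1 SOX match (21.2% of all promoters) and 1 TCF/LEF match.

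A BAF region joins all touching or overlapping BRG1 and BAF155 peaks within 1 state. A region is called common when at least 25% of either region is covered by one of the other state, and naïve-only or primed-only otherwise. The 8 loci held 70 regions, of which 28 were naïve-only, 17 primed-only and 25 common. The common share of 25 of 70 stood beside 26.1% of all regions in the genome. TBXT had 2 naïve-only, 3 primed-only and 2 common regions. EOMES had 0, 3 and 4, GSC 0, 2 and 2, and LHX1 0, 5 and 2, in the same order. MIXL1 had 3, 0 and 3, MESP1 7, 1 and 3, TBX6 14, 2 and 7, and MSGN1 2, 1 and 2.

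**Figure D1:**
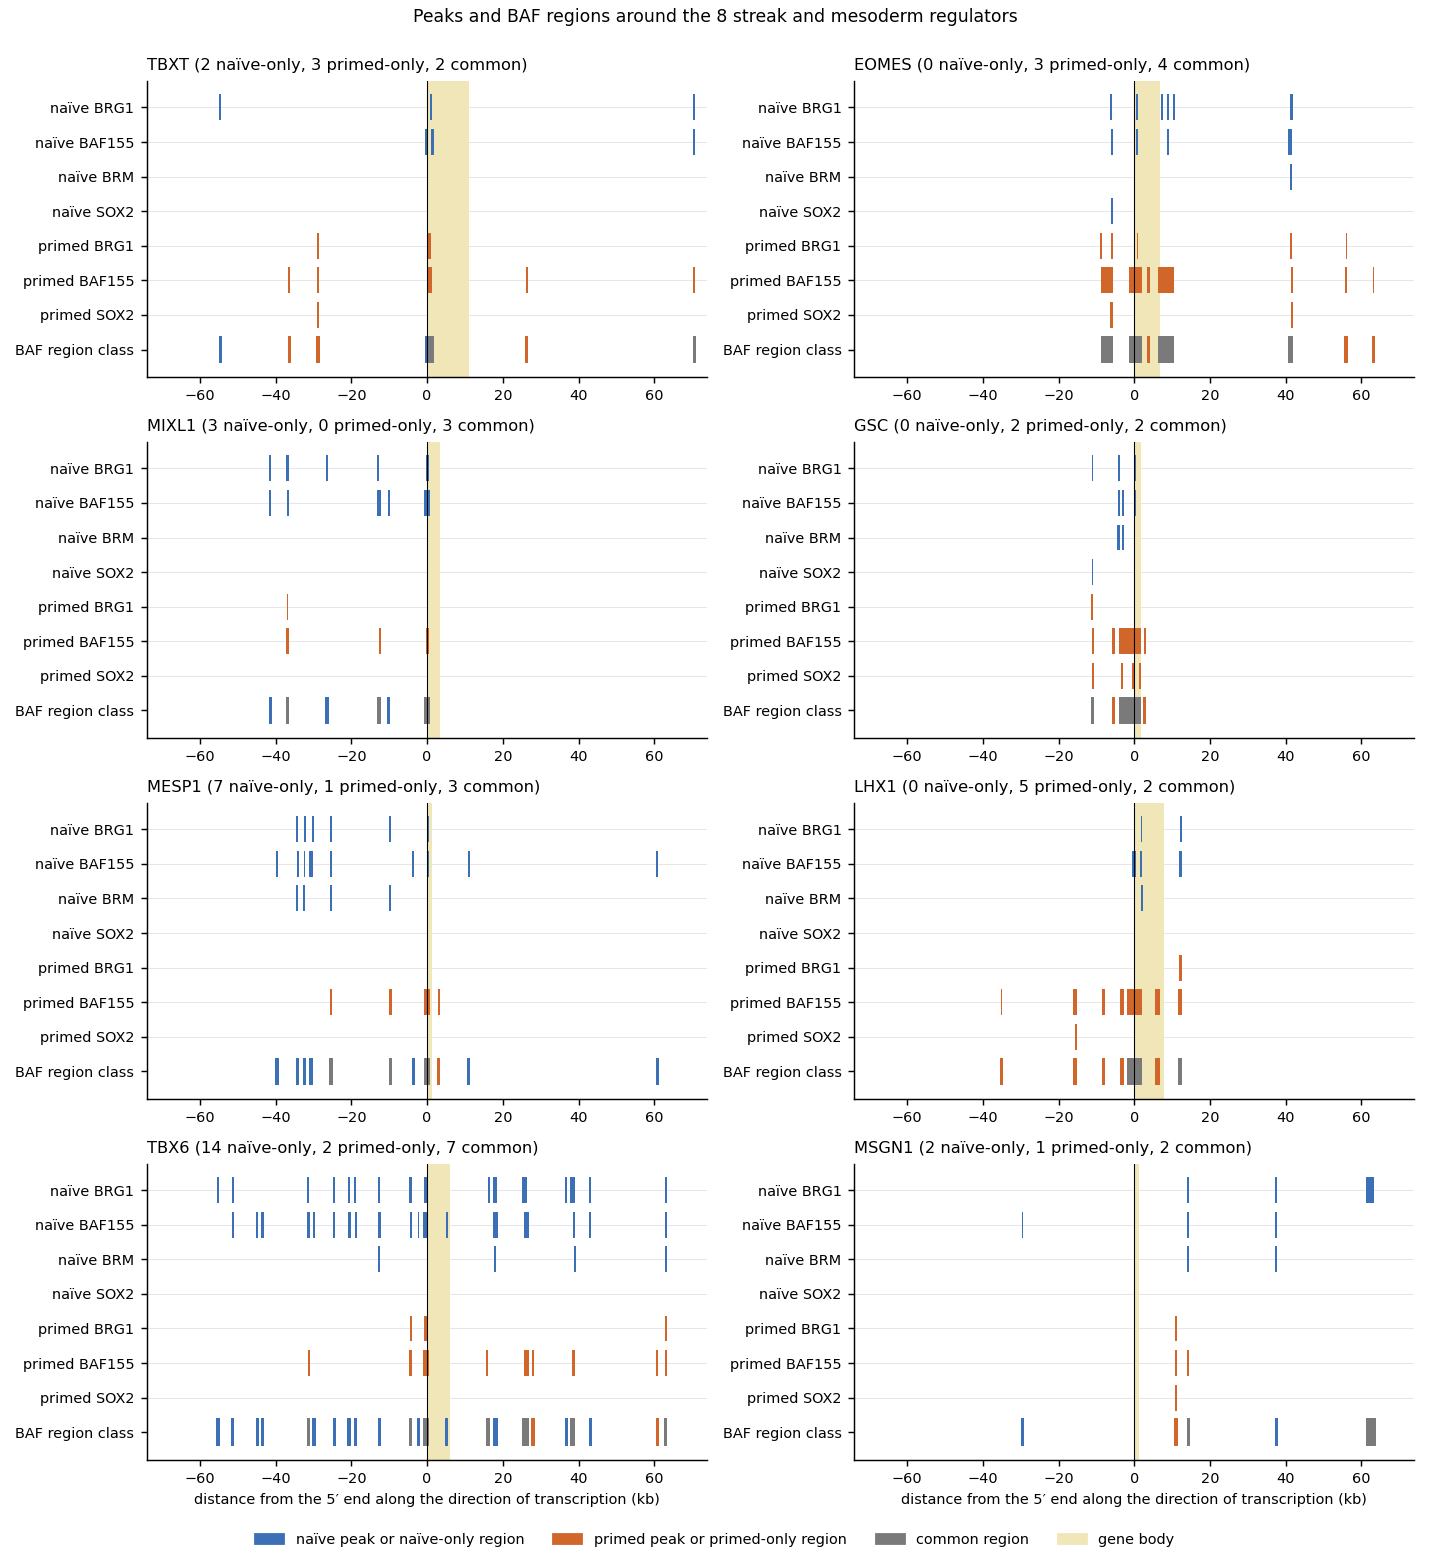
Each panel shows the peaks of 7 lists and, in the lowest lane, the BAF region classes, against the distance from the member's 5′ end in kb along the direction of transcription; the narrowest features are widened to be visible. EOMES, GSC and LHX1 show wide primed BAF155 blocks over their 5′ ends, and MSGN1 has no peak there.

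At TBXT, EOMES, GSC and LHX1 primed-only regions outnumbered naïve-only ones, and at MIXL1, MESP1, TBX6 and MSGN1 the reverse was found. Over all protein-coding loci 21.2% had more primed-only and 66.1% more naïve-only regions. EOMES, GSC and LHX1 had primed-only and no naïve-only regions, which held for 6.43% of all loci. The split depended on the window, on the overlap rule and on BAF155, and the shares over all loci depended on the lists used. With 100 kb flanks each of these 3 loci gained 1 naïve-only region, TBXT had 5 naïve-only and 3 primed-only, and 3 of 8 loci had a primed-only majority, against 20.6% of all loci. With 20 kb flanks TBXT had 1 of each, MSGN1 had 1 primed-only and 0 naïve-only, and 4 of 8 loci had a primed-only majority, against 21.8%. With BRG1 peaks alone none of the 8 loci had a primed-only majority, against 2.39% of all loci, and the naïve-only and primed-only counts were 2 and 1 at TBXT, 3 and 2 at EOMES, 2 and 0 at GSC and 1 and 0 at LHX1. With an overlap of 50% of both regions, the primed-only share of state-specific regions was 54.5% at EOMES, 50% at GSC and 75% at LHX1. With BAF155 alone, lists of equal length or a −log10 q of at least 3, these 3 loci kept primed-only and no naïve-only regions. That held for 10.4%, 10.1% and 19.4% of all loci. TBXT, EOMES, GSC and LHX1 then had a primed-only majority, against 31.1%, 33.2% and 35.8% of all loci. Gene density moved with this measure: among the 5108 loci with at most 1 protein-coding 5′ end per 100 kb, 37.3% had more primed-only regions, against 8.69% of the 3337 loci with 4 to 8. TBXT, EOMES and GSC were in the sparsest bin and TBX6, with 8 protein-coding 5′ ends in its window, in the latter. The part of gene density in the split was not tested.

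Over the 8 loci, 17 of 45 state-specific regions (37.8%, interval 23.8 to 53.5) were primed-only, against 38.6% of all state-specific regions. The primed BRG1 list, with 15611 peaks, was shorter than the naïve one, with 57884, whereas the BAF155 lists held 58352 and 62338. With BRG1 alone the share was 10.8%, against 9.94% of all state-specific regions made in the same way, and with BAF155 alone 45.5%, against 47.6%. Cutting the longer list of each pair to its top-ranked peaks by fold, so that both had equal length, gave 51.1%, against 49%. A −log10 q of at least 3 gave 46.2%, against 55.8%.

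Where the regions lay differed between the classes. The nearest protein-coding transcription start site (TSS) belonged to the member for 15 of 17 primed-only regions (88.2%, interval 63.6 to 98.5), for 14 of 25 common regions and for 6 of 28 naïve-only regions (21.4%, interval 8.3 to 41). These shares per class were not computed over all loci, so they have no background. Among the 21 state-specific regions nearest to a member's own TSS, 71.4% (interval 47.8 to 88.7) were primed-only. The same share over all protein-coding genes was 35.8%. Among the 24 state-specific regions nearest to another gene, 2 were primed-only. Counted in this way, primed-only regions were in the majority at 5 of 8 members, against 20.3% of all protein-coding genes. The naïve-only regions were concentrated at TBX6, with 14 of which 1 was nearest to TBX6, and at MESP1, with 7 of which 2 were nearest to MESP1. Without TBX6 the share over all regions of the remaining windows was 51.7% (interval 32.5 to 70.6). Without both it was 66.7% (interval 43 to 85.4), and 82.4% (interval 56.6 to 96.2) of the 17 regions nearest to a member. Neither omission was planned. TBX6 and MESP1 held the most naïve-only regions, so leaving them out had to raise the primed-only share. The shares without them have no background, and no conclusion is drawn from them.

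**Figure D2:**
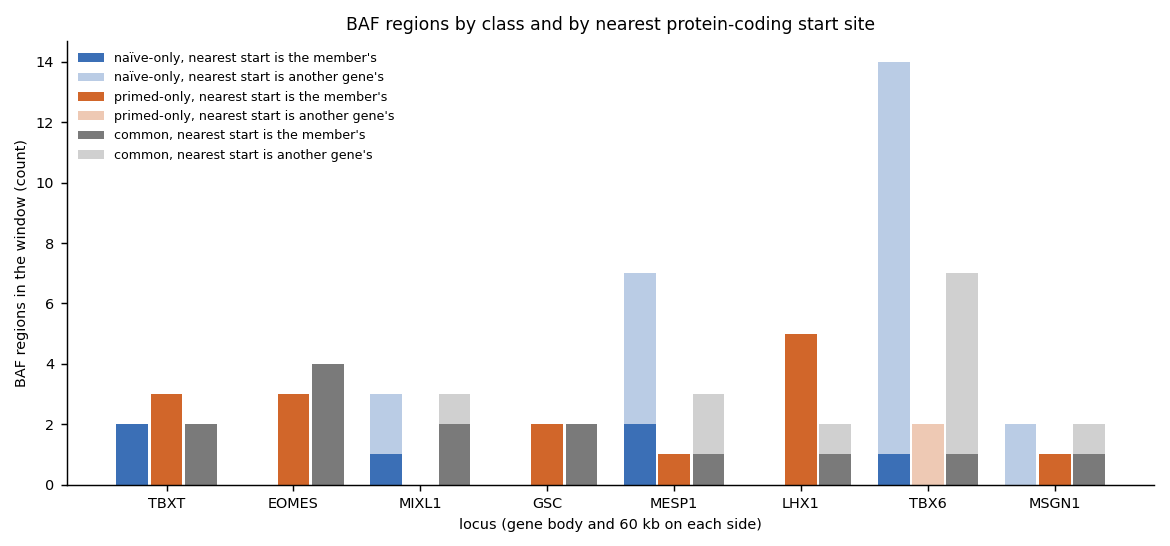
Bars give the number of BAF regions of each class in each window; solid parts have their nearest protein-coding start at the member and pale parts at another gene. Of the 14 naïve-only regions at TBX6, 1 was nearest to TBX6 itself, whereas all 5 primed-only regions at LHX1 were nearest to LHX1.

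All 17 primed-only regions carried a BAF155 peak, as did 99.7% of all primed-only regions in the genome. A primed BRG1 peak was in 3 of them (11.9% of all primed-only regions), at TBXT 28.8 kb upstream, at EOMES 55.9 kb downstream and at MSGN1 11.1 kb downstream. A primed SOX2 peak lay in 3 primed-only regions, at TBXT, LHX1 and MSGN1, against 13.4% of all primed-only regions, and in 4 common regions, against 14%. Promoters, defined as midpoints within 1 kb of any TSS, made up 18 of 25 common regions, 4 of 17 primed-only and 7 of 28 naïve-only regions. Genome-wide these shares were 52.2%, 14.6% and 13.7%. The median GC content of the 200 bases at the midpoint was 67.5% in common, 54.5% in primed-only and 52.8% in naïve-only regions of the loci.

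At the 5′ ends, 7 of 8 members had a common BAF region within 1 kb, against 58.1% of protein-coding genes, and MSGN1 had none. TBXT had in addition a naïve-only region over its 5′ end (9.49% of genes have such a region), and no member had a primed-only region there (8.84% of genes). At EOMES, GSC and LHX1 the primed BAF155 calls were far wider than the naïve ones. Within 5 kb of the 5′ end, naïve BAF155 peaks covered 348 bp at EOMES, 1112 bp at GSC and 1628 bp at LHX1, and primed BAF155 peaks covered 4238, 5907 and 4895 bp. Medians over all protein-coding genes were 614 bp in naïve and 847 bp in primed cells. The primed coverage at these genes exceeded that at 98.3%, 99.5% and 98.9% of protein-coding genes, and the difference between the states that at 99.4%, 99.7% and 99%. BRG1 went the other way at the same 5′ ends. Naïve BRG1 peaks covered 658, 385 and 404 bp and primed BRG1 peaks 284, 0 and 0 bp. The BRG1 medians over all protein-coding genes were 576 bp in naïve and 0 bp in primed cells. The wide calls are therefore a result for BAF155 alone.

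MESP1 also had a wider primed BAF155 call, with 583 bp in naïve and 1737 bp in primed cells, above 78.8% of genes in primed cells. TBX6 had 1531 and 2259 bp. TBXT, with 1316 and 1006 bp, and MIXL1, with 1591 and 758 bp, had less coverage in primed cells. For TBXT this direction turned with a −log10 q of at least 3, where the difference was 1006 bp in favour of primed cells. MSGN1 had no base under any peak of the 7 lists within 5 kb. In all, 5 of 8 members had more primed than naïve BAF155 coverage, as did 48.7% of protein-coding genes.

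**Figure D3:**
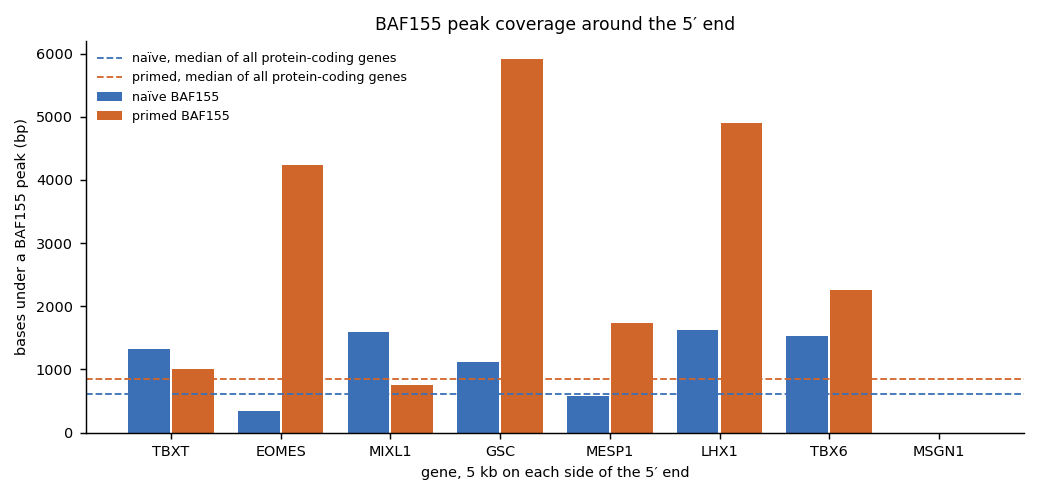
Bars give the bases under naïve and primed BAF155 peaks within 5 kb of each 5′ end, and dashed lines the medians over all protein-coding genes. The primed bars at EOMES (4238 bp), GSC (5907 bp) and LHX1 (4895 bp) exceed all other bars, and MSGN1 is at 0.

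Of the 41 primed BAF155 peaks in the loci, 5 belonged to the widest 1% of that list, 3 at EOMES, 1 at GSC and 1 at LHX1. None of the 48 naïve BAF155, 44 naïve BRG1 or 14 primed BRG1 peaks did in its own list. BAF peaks were called as broad peaks, so a wide call can join neighbouring enriched stretches. The LHX1 block had a −log10 q of 2.2, and with a minimum of 3 no BAF155 peak of either state remained near this 5′ end. The EOMES and GSC blocks passed that minimum.

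TBXT (chromosome 6, 166157656 to 166168700, minus strand), the streak and notochord T-box factor, was the only protein-coding gene with a 5′ end in its window. Its promoter region was common, with naïve BRG1 at 2.94-fold over input, primed BRG1 at 3.41-fold, primed BAF155 at 4.43-fold and a naïve BAF155 peak at 3.04-fold, all as given by the authors' peak caller. The naïve-only region over the 5′ end (166168671 to 166169160) was a BAF155 peak of 2.87-fold. Of the primed-only regions, the strongest was an intergenic BAF155 peak of 4.19-fold lying 26.3 kb downstream of the 5′ end. The only SOX2 peak, 8.2-fold in primed cells (166197376 to 166197597), lay 28.8 kb upstream in a primed-only region with primed BAF155 at 4.14-fold and primed BRG1 at 3.29-fold. The strongest naïve-only region, a BRG1 peak of 3.83-fold, lay 54.7 kb upstream. No BRM peak was listed in the window.

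EOMES (chromosome 3, 27715949 to 27722711, minus strand), which acts in mesendoderm and also later in other lineages, had all 7 BAF regions nearest to itself. Its promoter held a primed BAF155 peak of 3507 bp at 3.6-fold, over naïve BAF155 of 348 bp at 2.41-fold. Further primed BAF155 blocks of 4201 bp and 3363 bp lay over the 3′ end of the gene and upstream of its 5′ end. The upstream block held the strongest site of the locus. There, primed BRG1 reached 6.45-fold, above 98.6% of that list, and primed BAF155 4.85-fold, above 93.3%. Naïve BRG1 at the same place was 2.71-fold, above 24.9% of its list, and naïve BAF155 2.72-fold, above 30%.

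SOX2 was called at this upstream EOMES site in both states. The naïve peak (27728509 to 27728862) was 7.03-fold and above 45.4% of its list, and the primed peak (27728466 to 27729129) 10-fold and above 80.3%. The lists differ in length, so these percentages place each peak within its own list alone. A second primed SOX2 peak (27680792 to 27681110, 6.08-fold) lay 41.8 kb downstream in a common region, next to the only BRM peak of the locus, at 2.64-fold. The strongest primed-only region, 3.66-fold, lay 55.9 kb downstream.

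MIXL1 (chromosome 1, 226223618 to 226227060, plus strand), a target of NODAL signalling in the streak, had no primed-only region and no SOX2 or BRM peak. The common promoter region carried naïve BRG1 at 3.54-fold, naïve BAF155 at 3.22-fold and primed BAF155 at 3.42-fold, with no primed BRG1. Naïve BAF155 covered 1591 bp there and primed BAF155 758 bp. A common region 12.7 kb upstream had naïve BRG1 at 3.67-fold, above 90.4% of its list, and no primed BRG1. BAF155 there was 2.89-fold in naïve cells, above 49.8% of its list, and 2.59-fold in primed cells, above 2.24%. The naïve-only region of highest fold, 2.76, lay 10.2 kb upstream.

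GSC (chromosome 14, 94768223 to 94770113, minus strand), the homeodomain factor of the anterior streak and organizer, had 4 primed SOX2 peaks, more than 97.3% of protein-coding loci. A primed BAF155 peak of 5691 bp, wider than 99.9% of that list, covered most of the gene and the divergent lncRNA ENSG00000285205 upstream. Naïve cells had separate short peaks in this stretch, with BAF155 at 3.05-fold over the 5′ end and at 2.69-fold and 3.37-fold upstream. No primed BRG1 peak lay in the primed BAF155 block. Of the SOX2 peaks, 3 lay inside this block. The peak 0.383 kb upstream of the 5′ end (94770290 to 94770702) was 11.5-fold, above 86.9% of the primed list. The peaks 1.44 kb downstream (94768569 to 94768777) and 3.15 kb upstream (94773106 to 94773418) were weaker, at 3.96-fold and 5.02-fold.

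The other SOX2 site at GSC was shared between the states. It lay 11 kb upstream, with a naïve peak (94780996 to 94781337) of 12.7-fold, above 90.2% of its list, and a primed peak (94780865 to 94781327) of 9.55-fold, above 77.8%. BAF155 was called there in primed cells alone, at 4.82-fold and above 93.1% of its list. BRG1 was called in both states, at 3.07-fold in naïve and 3.57-fold in primed cells. The strongest primed-only region, a BAF155 peak of 3.41-fold, lay 5.46 kb upstream. Naïve BRM was called upstream of the 5′ end in the lncRNA exon, at 3.22-fold and 3.35-fold.

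LHX1 (chromosome 17, 36936785 to 36944612, plus strand), a LIM homeodomain factor of the anterior streak and axial mesoderm, had 5 primed-only regions, at or above the count in 91.5% of loci. All 5 were BAF155 peaks without BRG1, of 2.77-fold to 3.38-fold, and spread from 35.1 kb upstream to 6.1 kb downstream. The highest fold was at 8.16 kb upstream, in an intron of the divergent lncRNA LHX1-DT. None of the 5 reached a −log10 q of 3, with values from 1.57 to 2.68. With that minimum 1 primed-only region was left in the window, at the AATF promoter, where the region is common without it. The common promoter region of 4115 bp was a primed BAF155 peak of 2.84-fold over naïve BAF155 peaks of 2.84-fold and 2.63-fold, naïve BRG1 at 2.69-fold and naïve BRM at 3.98-fold. It held no primed BRG1 peak. The SOX2 peak (36921255 to 36921460), 5.99-fold in primed cells, lay in a primed-only region 15.4 kb upstream. The common region of highest fold, 3.45, was at the AATF promoter.

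MESP1 (chromosome 15, 89749875 to 89751249, minus strand), which marks nascent and cardiac mesoderm, shared its window with MESP2, WDR93 and PEX11A. The common region at its 5′ end carried primed BAF155 at 4.06-fold over 1573 bp and naïve BAF155 at 2.84-fold over 360 bp, with naïve BRG1 at 2.65-fold and no primed BRG1. Of the 7 naïve-only regions, 2 were nearest to MESP1. The strongest lay 34.2 kb upstream, in an exon of ANPEP, with naïve BRG1 at 4.8-fold, above 98.5% of its list, and BRM at 4.93-fold, above 95.9%. The sole primed-only region was a BAF155 peak of 3.07-fold 3.06 kb downstream of the 5′ end. The other BRM peaks were nearest to MESP2, and no SOX2 peak was listed.

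TBX6 (chromosome 16, 30085793 to 30091924, minus strand), the T-box factor of paraxial mesoderm, had 23 BAF regions, more than 90.8% of loci. Its own promoter held a common region with all 4 BAF lists, from naïve BRG1 at 2.31-fold to primed BRG1 at 3.53-fold. The strongest regions belonged to neighbours. The TLCD3B promoter had the common region of highest fold, 6.04, and the BRM peak of highest fold, 5.93, above 98.8% of the BRM list. It also had the strongest primed-only region, at 3.34-fold. The strongest naïve-only region, at 4.23-fold, lay in an exon 12.7 kb upstream of TBX6, with GDPD3 as the nearest TSS. No SOX2 peak was listed.

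MSGN1 (chromosome 2, 17816460 to 17817798, plus strand), the bHLH regulator of presomitic mesoderm, had no BAF region within 10.9 kb of its 5′ end. The nearest was primed-only (17827362 to 17827696), with primed BAF155 at 5.06-fold, above 94.7% of its list, and primed BRG1 at 3.47-fold. The SOX2 peak in this region (17827291 to 17827701) was 16.5-fold, above 96.3% of the primed list, and the highest fold of any SOX2 peak in the 8 loci. No naïve BRG1, BAF155, BRM or SOX2 peak overlapped it. A common region 14.3 kb downstream had primed BAF155 at 4.08-fold, naïve BAF155 at 3.69-fold and naïve BRM at 3.24-fold. The strongest naïve-only region, 3.5-fold, lay 37.5 kb downstream and held the strongest BRM peak of the locus, at 3.91-fold.

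**Figure D4:**
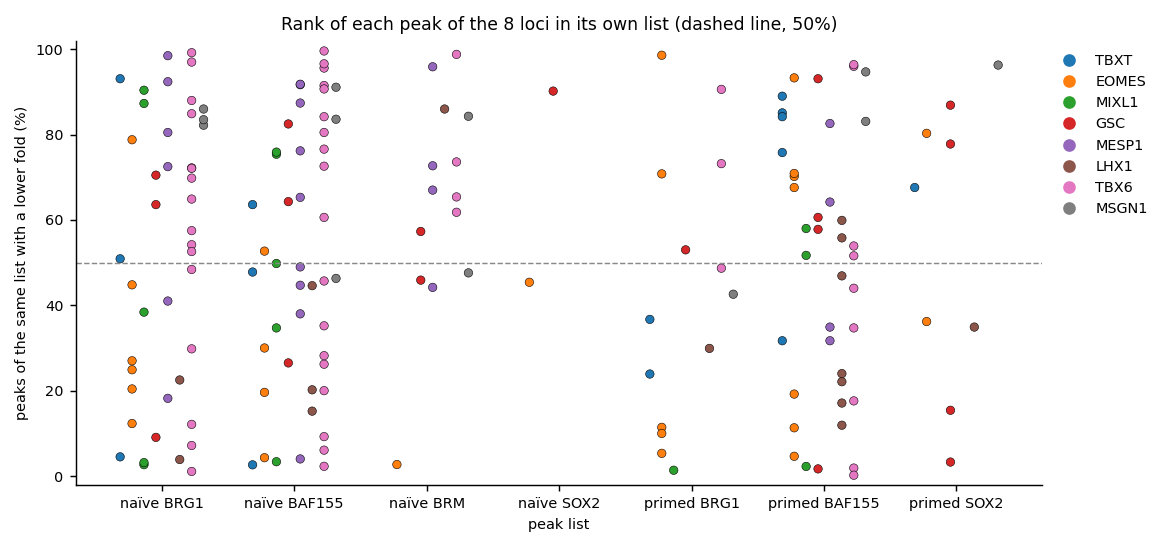
Each point is 1 peak of the loci, placed by the percentage of peaks of the same list with a lower fold; the dashed line marks 50%. The highest points are at TBX6 among naïve BRG1 (99.2%), naïve BAF155 (99.6%), naïve BRM (98.8%) and primed BAF155 peaks (96.4%). They are at EOMES among primed BRG1 (98.6%), at MSGN1 among primed SOX2 (96.3%) and at GSC among naïve SOX2 peaks (90.2%). Other peaks spread over the whole range.

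Across the loci, primed SOX2 peaks were present at 5 of 8, against 42.6% of all protein-coding loci, and naïve SOX2 peaks at 2 of 8, against 13.2%. A primed BAF region held each of the 9 primed SOX2 peaks (100%, interval 66.4 to 100), as for 88.4% of all primed SOX2 peaks, and 2 of 9 overlapped a naïve SOX2 peak, against 10%. Of the 9, 4 also lay in a naïve BAF region, as did 41.6% of all primed SOX2 peaks. With BRG1 peaks alone as BAF regions, the share of the 9 peaks in one was 44.4%. The primed BRG1 list is short, at 15611 peaks against 58352 for BAF155. The share of all primed SOX2 peaks under this rule was not computed, so the 44.4% has no background. The primed SOX2 list was longer, with 9290 peaks against 1940, and when the primed list was limited to its 1940 top-ranked peaks, 3 of the 9 remained. Folds of the 9 peaks had a median of 8.2, against 6.73 in the whole list.

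Naïve BRM peaks numbered 14, at 6 of 8 loci, against 70.2% of all protein-coding loci. A BRM peak overlapped 9 of 25 common regions (32% of all common regions) and 5 of 28 naïve-only regions (14.2%). In 1 of the 9, at the KCNS3 promoter near the edge of the MSGN1 window, the BRM peak itself lay outside the window and is not among the 14. TBX6 and MESP1 had 4 each, GSC and MSGN1 2 each, and EOMES and LHX1 1 each. Only the LHX1 peak lay inside the member's own gene body. The primed BRM list, with 167 peaks in all, had none in the 8 loci.

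The other genes of streak induction were counted by list, chosen by their roles. Over all protein-coding loci 21.2% had more primed-only and 66.1% more naïve-only regions, the background for each split below. Of 10 ligand loci (WNT, FGF and TGF-β family members), 1 had more primed-only and 9 more naïve-only regions. BMP4, with 7 primed-only and 1 naïve-only regions, was the exception, and GDF3 had 0 and 14. Receptors and effectors split 4 to 7 of 13, inhibitors such as CER1 and the LEFTY genes 3 to 2 of 7, and other streak and mesoderm factors 9 to 8 of 18, with EVX1 at 10 primed-only and 3 naïve-only and SNAI1 at 3 and 19. For comparison, endoderm regulators split 5 to 3 of 8, with FOXA2 at 8 and 0, and neuroectoderm regulators 6 to 1 of 8, with FEZF1 at 8 and 0. Primed SOX2 peaks were present at 8 of 10 ligand, 8 of 13 receptor and effector, 6 of 7 inhibitor and 8 of 18 other factor loci, and at 7 of 8 endoderm and 7 of 8 neuroectoderm loci, against 42.6% of all loci. The MESP2 window overlaps that of MESP1 and shares regions with it. These counts were not tested and the lists differ in gene density.

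**Figure D5:**
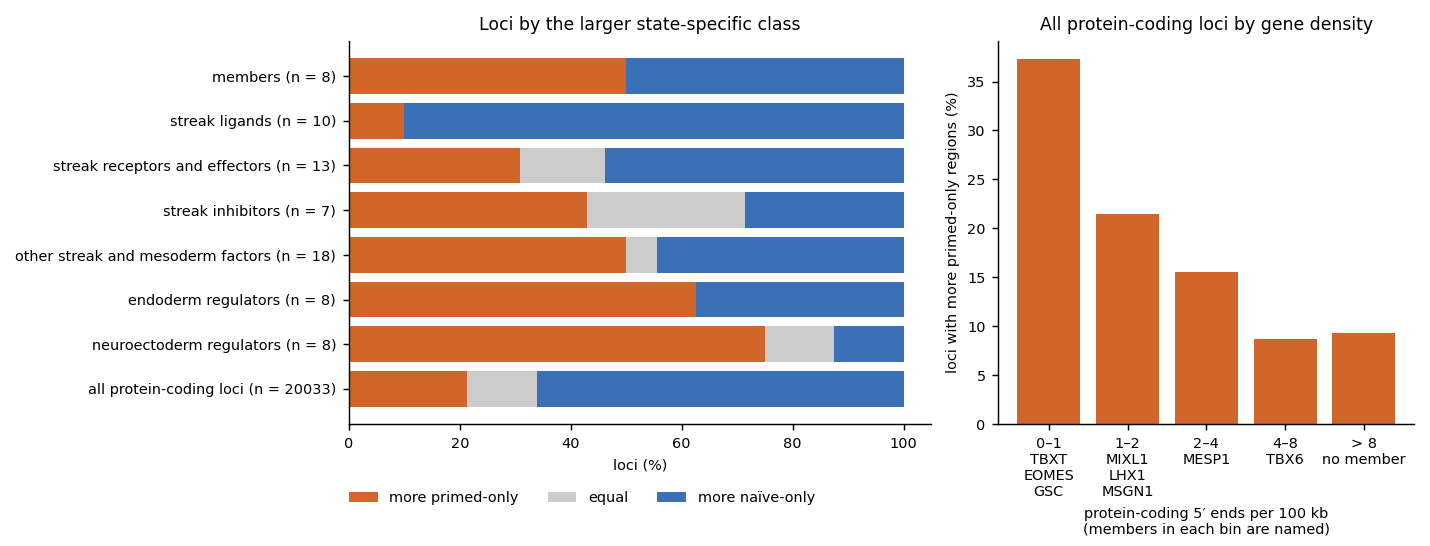
Left, the share of loci in each gene list with more primed-only, equal or more naïve-only BAF regions. Right, the share of all protein-coding loci with more primed-only regions by number of protein-coding 5′ ends per 100 kb, at 37.3% in the sparsest bin, 8.69% at 4 to 8 and 9.28% above 8, with the members of each bin named.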

How the data were processed

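ChIP-seq peak lists of WIBR3 hESCs were analysed for naïve and primed BRG1, BAF155, BRM and SOX2. Per the labels, SOX2 and BAF libraries were prepared and sequenced separately, the former with paired-end reads. The submitters' processing notes name FastQC 0.10.1, Bowtie2 2.3.4 and SAMtools 0.1.19, and the methods of the study describe mapping to hg38 and MACS2 calling against input, narrow for SOX2 and broad for BAF. Besides positions, the deposited lists hold values of the authors' peak caller, except that the primed BRM list and 1 SOX2 list per state give positions alone. These are a score, a fold over input (a linear ratio) and −log10 p and q values in the deposited files. All 1940 naïve and 9290 primed SOX2 peaks had the same coordinates in both libraries. Read totals were not used here, so a missing peak is a call below threshold, and list lengths were not set against depth.

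Peaks overlapping a window by at least 1 bp were counted. BAF regions were merged BRG1 and BAF155 peaks, partnered when 25% of either was covered. The nearest TSS was taken from the region midpoint, and 5′ ends are those of GENCODE release 44 genes. Folds were ranked only within a list. Overlap code was tested on simulated regions against bedtools 2.31.1. Python 3.11.15, pandas 2.3.3, SciPy 1.17.1 and pysam 0.24.0 were used. Motif letters were searched in hg38 within 75 bases of SOX2 summits and in 250 bases before RefSeq starts. Named items are, per locus, every SOX2 peak, every BAF region within 1 kb of the 5′ end, the region of highest fold in each class and the BRM peak of highest fold. Loci of other lists were named for the most state-specific regions, and EOMES, GSC and LHX1 coverage was singled out after its values were seen. The members and lists were chosen with earlier results of these data known. Alternatives were other flanks, overlap rules, peak thresholds, subunits and TSS assignment.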

Additional observations from a re-analysis of the deposited data

How the results depend on the processing

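Of the alternative values for counts and shares over the 8 loci, 39 stayed within 1.5 times the reported count or within the interval of the reported share, and 29 did not. Windows with 20 kb flanks held 9 naïve-only and 10 primed-only regions and 7 BRM peaks, and windows with 100 kb flanks 46 naïve-only and 43 common regions, 23 BRM peaks and 4 naïve SOX2 peaks. Counting only features nearest to the member's TSS gave 6 naïve-only and 14 common regions, a primed-only share of 71.4% and 5 BRM peaks. An overlap of 50% of both regions gave 44 naïve-only, 28 primed-only and 14 common regions, with 22.2% of primed SOX2 peaks in a primed BAF region, since a short SOX2 peak cannot cover 50% of a wide region. A −log10 q of at least 3 left 14 naïve-only and 9 common regions and 2 BRM peaks. A fold of at least 4 left 3 naïve-only, 8 primed-only and 2 common regions and 2 BRM peaks, with a primed-only share of 72.7% and 50% of primed SOX2 peaks in a primed BAF region. Neither share was computed over all regions or peaks at this fold, so they have no background. Median folds were 3.28 for BAF155 and 3.54 for BRG1 in the primed lists, against 2.89 and 2.93 in the naïve lists. BRG1 peaks alone gave 4 primed-only and 11 common regions, a primed-only share of 10.8% and 44.4% of primed SOX2 peaks in a BAF region. Equal numbers of top-ranked peaks left 3 primed SOX2 peaks. Without the TBX6 locus, chosen after seeing the data, the primed-only share was 51.7%. This locus held the most naïve-only regions, so the share had to rise.

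Bases under BAF155 at the 5′ ends were also recomputed with settings chosen after seeing the data. With a −log10 q of at least 3, the primed minus naïve difference was 3507 bp at EOMES, 5404 bp at GSC, 0 bp at LHX1 and 1006 bp at TBXT, whose reported difference is -310 bp, and with equal numbers of top-ranked peaks it was 1623 bp at TBX6. With a fold of at least 4 no state-specific region remained at LHX1 and MIXL1, so their shares have no value. Leaving out a SOX2 library gives no other value because both lists of a state are identical, and the BAF groups have 1 library each. By locus, an overlap of 50% of both regions took the primed-only share from 100% to 54.5% at EOMES, 50% at GSC and 75% at LHX1. No paired analysis was possible because no group has more than 1 distinct list and the results come from no test.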
